A study of Mus musculus with 2 samples.

Results

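Aminoacyl-tRNA synthetases join each amino acid to its transfer RNA (tRNA), the step that supplies the ribosome with charged tRNA. The genes described here are 39 in all: 20 encode cytosolic synthetases or their subunits, 3 encode scaffold proteins of the multisynthetase complex, and 16 encode mitochondrial synthetases. The set was put together with earlier results of these data known. Within it, probe sets were taken by gene symbol, as every one whose platform symbol was that of a member or its current form with the suffix 1 (Aars1 for Aars). Of the 39 genes, 38 were found, on 76 probe sets, among 18193 genes on the array; Dars, the aspartyl-tRNA synthetase gene, is not analysed here.

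The cells were mouse regulatory T cells (Tregs), the Foxp3+ lymphocytes that restrain immune responses, induced in vivo through dendritic cells (DCs) and compared after immunization. They were sorted as positive for CD25 and Foxp3. Total RNA of Hopx-sufficient cells was hybridised to 1 array and that of Hopx-/- cells, which lack the transcription cofactor Hopx, to 1 array. The comparison addresses which transcripts differ in these Tregs without Hopx. Mouse strain, age, the Hopx allele, the immunizing agent and the number of animals are not given in the sources used here.

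In the deposited table the values of each probe set had been centred on their mean over both arrays, so that the columns mirror each other and hold no signal level. The sign of a deposited value thus says on which array a transcript was higher, and the difference between the arrays spans both values. All differences below are log2, Hopx-/- minus Hopx-sufficient, as a mean over the probe sets of a gene. No replicate error can be given, since each genotype had 1 array, and no test was possible; the spread shown is between probe sets of a gene (pooled standard deviation 0.18 over 9010 genes with 2 or more). The Hopx transcript was 35.4-fold lower on the Hopx-/- array, with its 2 probe sets at -5.43 and -4.86, so the labels and the targeted gene go the same way. Spike-in controls, 18 probe sets with no mouse sequence, ran from -0.21 to 0.01, with a median of -0.12. Their range is thus not centred on 0, and it serves below as a yardstick only. Fewer cells of a type and less RNA per cell cannot be told apart in such bulk samples.

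Cytosolic synthetases serve all protein synthesis outside mitochondria, and activated T cells raise them as they grow. In many cells several of these genes are also induced by ATF4, the transcription factor that is translated when the kinase GCN2 senses uncharged tRNA. Part of the enzymes is held in the multisynthetase complex, which is organised by Aimp1, Aimp2 and Eef1e1, while mitochondria use separate enzymes that the nuclear genes with the suffix 2 encode. The genes Gars and Kars supply both compartments.

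Transcripts of the cytosolic synthetases were lower on the Hopx-/- array in 18 of 19 measured genes, against 47.4% of all genes. Their median difference was -0.40, a ratio of 1.32-fold, beside a median of 0.01 over all genes. By the rule of size used here, 1.5-fold or 0.58 on the log2 scale, 4 of the 19 were lower and 0 higher; over all genes 1.253% were lower and 0.313% higher by that much. At a smaller size, 0.32 or more on the log2 scale, 14 of the 19 were lower, against 6.61% of all genes, and at 2-fold 0 were, against 0.137%. Of their 40 probe sets, 34 were lower, and 13 of the 19 genes lay in the lowest 5% of all genes.

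Aars, the alanyl-tRNA synthetase gene, stood lowest, with deposited values of 0.39 on the Hopx-sufficient and -0.39 on the Hopx-/- array. It was 1.71-fold lower in Hopx-/- cells, with probe sets at -0.75 and -0.79, and ranked 66 from the lowest of all genes. Mars, for methionine, had deposited values of 0.36 and -0.36 in the same order, which makes it 1.66-fold lower on its 1 probe set. Iars, for isoleucine, stood at 0.35 and -0.35, or 1.63-fold lower, with probe sets at -0.61 and -0.80. Yars, for tyrosine, stood at 0.33 and -0.33, or 1.58-fold lower on 1 probe set. All 4 genes were thus higher on the Hopx-sufficient than on the Hopx-/- array, and the difference of each lay in the lowest 1% of all genes.

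Just short of 1.5-fold came Gars, for glycine, at a log2 difference of -0.58 on 1 probe set, with deposited values of 0.29 and -0.29. Cars, for cysteine, followed at -0.56, with probe sets at -0.50 and -0.63. Tars (threonine, -0.53), Rars (arginine, -0.51) and Lars (leucine, -0.40) had 1 probe set each, as did Vars (valine, -0.39). Nars, for asparagine, had 2 probe sets with similar values, -0.48 and -0.43, and Hars, for histidine, gave -0.28 and -0.38. None of these genes overlapped the range of the spike-in controls.

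Probe sets disagreed in size for Eprs and Wars. Eprs encodes a fused enzyme that charges the tRNAs of both glutamate and proline; its mean was -0.38, with 1 probe set at -0.07 and the other 3 between -0.58 and -0.32. Wars, the tryptophanyl-tRNA synthetase gene, which interferon-gamma also induces, had a mean of -0.39, with 1 probe set at -0.10 and the other 3 between -0.51 and -0.48.

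A smaller set of cytosolic genes differed little. Sars (serine, -0.18), Kars (lysine, -0.15), and the 2 subunits of phenylalanyl-tRNA synthetase, Farsb (-0.14) and Farsa (-0.10), lay within the spike-in range, and Farsb turned to 0.10 when probe sets with suffixes for shared transcripts or possible cross-hybridisation were left out, which left it 1 probe set. Qars, for glutamine, was the single cytosolic gene higher in Hopx-/- cells. Its deposited values were -0.07 on the Hopx-sufficient and 0.07 on the Hopx-/- array, and its 4 probe sets lay between 0.07 and 0.33, all above 0.

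**Figure D1:**
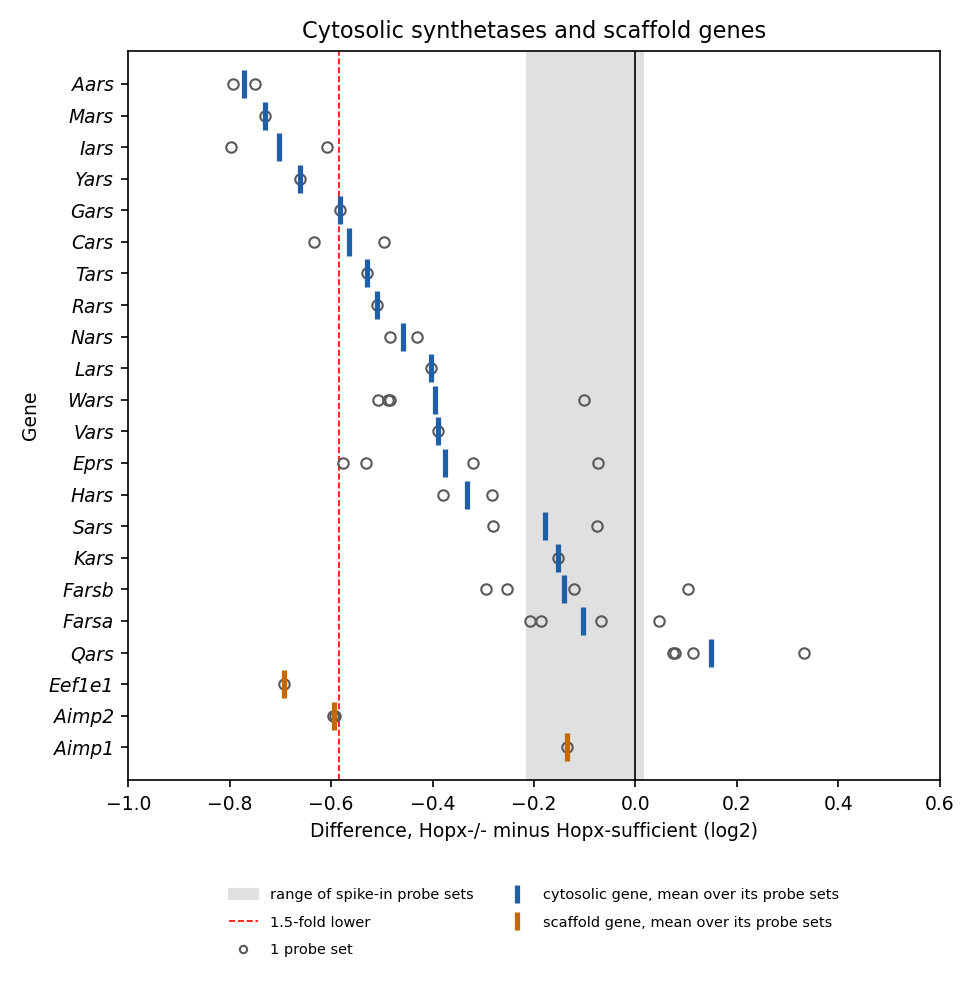
Log2 difference between the Hopx-/- and Hopx-sufficient arrays (x axis) for each cytosolic synthetase and scaffold gene (y axis); open circles are single probe sets, coloured bars are gene means, the grey band is the range of spike-in probe sets and the dashed line marks 1.5-fold lower. Aars at -0.77 is lowest and Qars at 0.15 is the single mean to the right of 0.

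Cytosolic genes known as targets of ATF4 were separated from the others by a list taken from general knowledge. It was drawn up with earlier results of these data known, so the split is not independent of them. All 12 known targets were lower, with a median of -0.55, and 11 of them by at least 0.32, the exception being Sars. Of the 7 other genes measured 6 were lower, with a median of -0.15, and 3 by at least 0.32 (Rars, Vars and Hars). Over all genes 47.4% were lower, and 6.61% by at least 0.32. The 4 genes past 1.5-fold, Aars, Mars, Iars and Yars, were all known targets, as were 12 of all 19 measured cytosolic genes. These medians describe a pair of arrays, and the difference between the sets has no test.

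ATF4 binds, with C/EBP partners, a composite element whose core was searched here as TGATGNAAN on both strands, in RefSeq promoter windows of 300 bases (build GRCm38.p6) from 250 bases before the start site to 50 after it. Windows were at hand for 30 of the 39 genes; those of Cars, Hars, Lars, Nars, Rars, Vars, Wars, Hars2 and Pars2 were not used here. A match was found in 5 of 13 cytosolic genes, in 0 of 3 scaffold genes and in 0 of 14 mitochondrial genes, while 3.95% of all 32851 windows held one. A gene counted as matched if any of its windows held a match, so the shares of genes and of windows are unlike measures. The 13 include Dars, whose transcript was not analysed. All 5 genes with a match were known targets, as were 8 of the 13 cytosolic genes with a window. The 5 stood at -0.77 to -0.53 on the log2 scale (median -0.66). The 7 measured cytosolic genes with a window but no match ran from -0.73 (Mars) to 0.15 (Qars), with a median of -0.15. Among them were the known targets Eprs, Mars and Sars. Another 7 measured cytosolic genes had no window and could not be sorted. All 7 were lower, from -0.56 to -0.33, with a median of -0.40. A match is a description of the letters and not of binding, and the absence of these letters in this window says nothing about the factor. The stretches that hold the matches are printed 5′ to 3′ on the strand of the gene, with the match in capitals:
Aars, chr8:111033692-111033761, plus strand: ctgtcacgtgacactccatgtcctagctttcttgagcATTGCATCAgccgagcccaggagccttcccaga
Gars, chr6:55037931-55038000, plus strand: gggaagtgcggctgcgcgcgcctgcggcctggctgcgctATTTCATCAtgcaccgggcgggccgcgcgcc
Tars, chr15:11399649-11399718, minus strand: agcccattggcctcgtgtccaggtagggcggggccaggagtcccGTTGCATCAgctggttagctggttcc
Iars, chr13:49682075-49682149, plus strand: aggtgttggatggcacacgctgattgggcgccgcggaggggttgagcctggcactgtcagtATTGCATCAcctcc
Yars, chr4:129189853-129189922, plus strand: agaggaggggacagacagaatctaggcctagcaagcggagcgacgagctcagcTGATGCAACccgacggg

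In Yars the element reads along the gene, and in the other 4 genes its reverse complement does. The first base of the match lies 113 bases upstream of the start site in Aars, 31 upstream in Gars and 16 upstream in Tars, and 6 and 3 bases downstream of it in Iars and Yars. Aars holds another match 8 bases downstream of the start, which is not printed. The E-box CACGTG, the site of MYC and related factors, was found in Aars, Iars, Tars, Farsb and Ears2. That is 4 of 13 cytosolic and 1 of 14 mitochondrial genes, against 7.15% of all windows, again a share of windows and not of genes. Of these genes Aars (-0.77), Iars (-0.70) and Tars (-0.53) were among the lower ones, while Farsb stood at -0.14 and Ears2 at 0.09.

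Enzymes inside and outside the multisynthetase complex had similar medians. The 7 measured genes of complex enzymes had a median of -0.40, with Mars and Iars lowest and Qars highest, and the 12 genes of free enzymes had a median of -0.43. Sorted by the fold of the catalytic site, 8 of 9 class I genes were lower (median -0.51). Of the measured class II genes 9 of 9 were lower (median -0.33), against 47.4% of all genes. Eprs holds a site of each class and was in neither set. The range within each of these sets was wider than the distance between their medians.

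All 3 scaffold genes were lower, against 47.4% of all genes. Eef1e1 had deposited values of 0.35 on the Hopx-sufficient and -0.35 on the Hopx-/- array, or 1.62-fold lower on 1 probe set. Aimp2, which links the complex enzymes, stood at 0.30 and -0.30, or 1.51-fold lower, and its 2 probe sets gave -0.59 and -0.60. Aimp1, whose protein binds tRNA, differed by -0.14, inside the spike-in range.

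Mitochondrial synthetases differed less. Of the 16 genes 11 were lower and 5 higher, with a median of -0.09. By 1.5-fold or more 1 was lower, and by 0.32 or more on the log2 scale 2 were (Yars2 and Sars2). Over all genes 1.253% and 6.61% were lower by these sizes. The 68.8% that were lower stand beside 47.4% of all genes, and 18 of 32 probe sets were lower. The differences of 4 mitochondrial genes were more negative than any spike-in control, against 14 of the 19 cytosolic genes and 2370 of all 18193 genes.

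Yars2, for tyrosine, was lowest at 0.30 on the Hopx-sufficient and -0.30 on the Hopx-/- array, or 1.51-fold lower, with probe sets at -0.53 and -0.65. The suffix of the first marks probes shared by transcripts of 1 gene, and that of the second marks possible cross-hybridisation. Sars2 came next at -0.34 (1.26-fold lower), then Rars2 at -0.27 and Aars2 at -0.25, each on 1 probe set. The genes Nars2 (-0.15), Vars2 (-0.15), Hars2 (-0.14) and Iars2 (-0.12) were within the spike-in range.

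Tars2 (-0.07), Lars2 (-0.04) and Cars2 (-0.02) were near 0. Lars2 had probe sets at -0.29, -0.16 and 0.32, and its sign turned with the most different probe set and without those of the finest value steps. Cars2 turned to 0.08 with the median of its probe sets. At the upper end stood Pars2, for proline, at -0.14 on the Hopx-sufficient and 0.14 on the Hopx-/- array, or 1.22-fold higher on 1 probe set. Mars2 was 1.12-fold higher, with probe sets at 0.13 and 0.20, and Ears2 (0.09), Fars2 (0.06) and Wars2 (0.06) followed. Without the probe sets of the finest value steps Ears2 stood at -0.09.

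**Figure D2:**
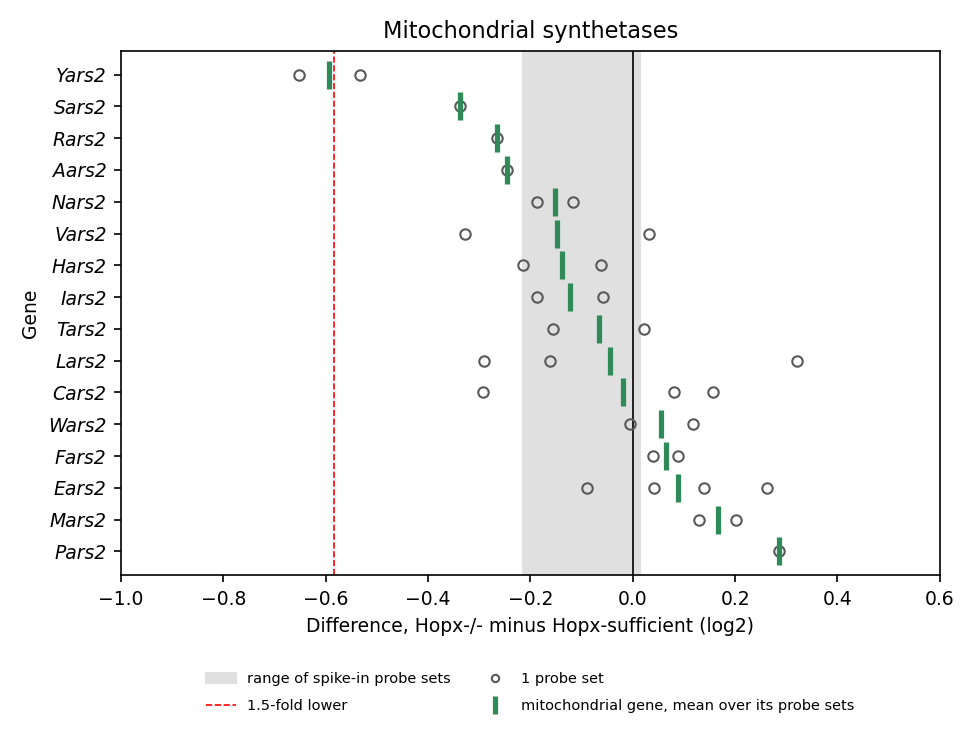
Log2 difference between the Hopx-/- and Hopx-sufficient arrays (x axis) for each mitochondrial synthetase gene (y axis), with probe sets as open circles, gene means as bars, the spike-in range in grey and 1.5-fold lower as a dashed line. Yars2 at -0.59 stands apart from the other genes, which run from -0.34 to 0.29.

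**Figure D3:**
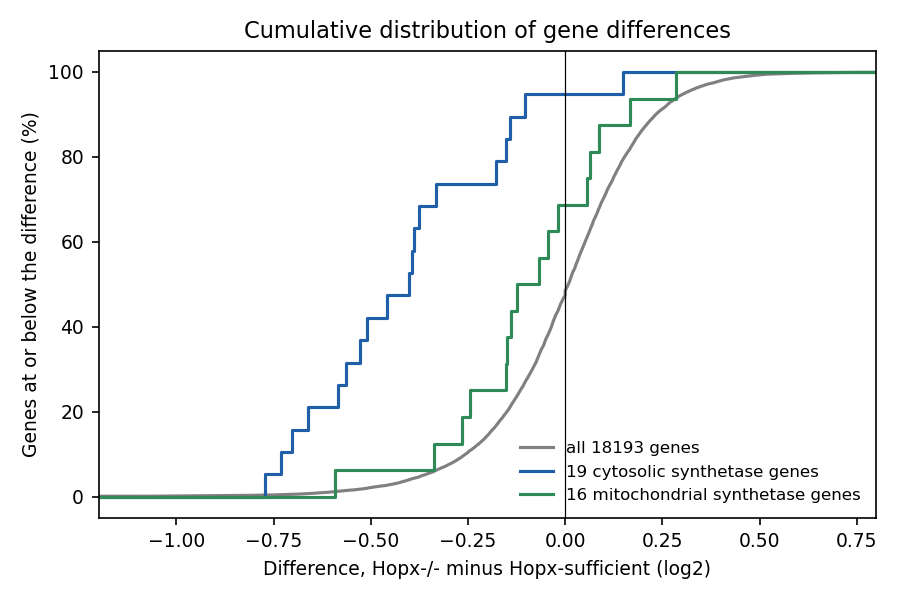
Share of genes (y axis, in percent) at or below each log2 difference (x axis) for all 18193 genes, 19 cytosolic and 16 mitochondrial synthetase genes. The cytosolic curve lies to the left of the others, with its median at -0.40 against -0.09 for the mitochondrial genes and 0.01 for all genes.

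The cytosolic and the mitochondrial enzyme of the same amino acid could be set side by side in 16 pairs, with Farsa and Farsb averaged and Eprs paired with both Ears2 and Pars2. The cytosolic gene was the lower of the pair in 15, and the median distance was -0.40 on the log2 scale. Methionine gave the widest distance, -0.90, with Mars at -0.73 and Mars2 at 0.17. Isoleucine followed among the pairs of single enzymes at -0.58, then cysteine at -0.55 and alanine at -0.53. For tyrosine both genes were lower by similar amounts, -0.66 for Yars and -0.59 for Yars2. Serine was the exception, with Sars2 at -0.34 below Sars at -0.18. Pairs share the arrays and are not replicates, so these distances carry no test.

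**Figure D4:**
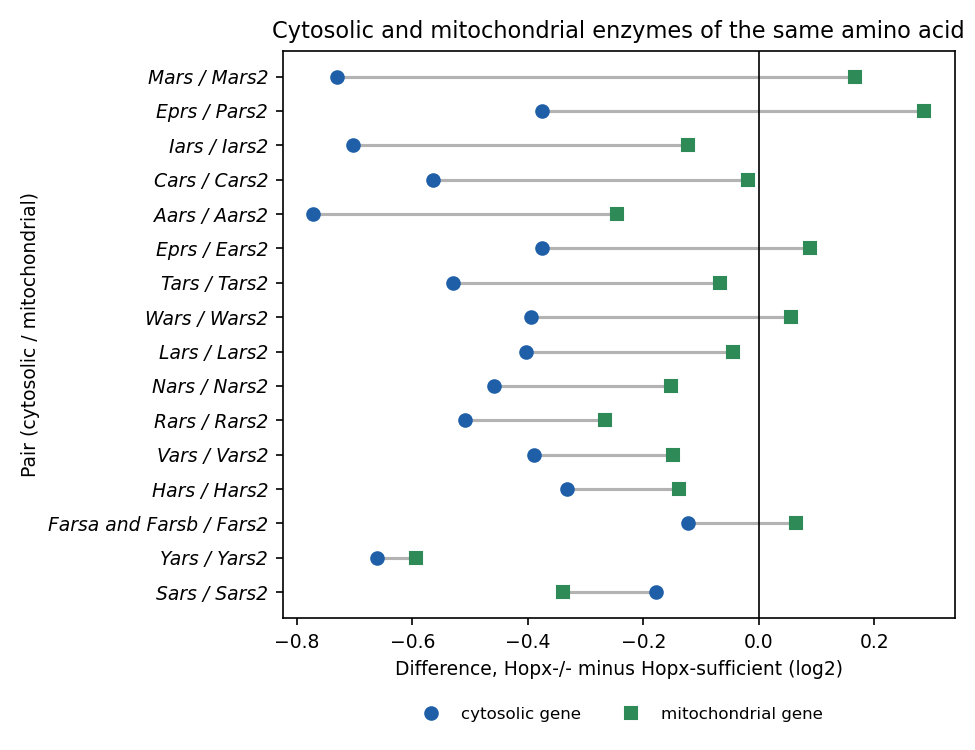
Log2 difference between the Hopx-/- and Hopx-sufficient arrays (x axis) of the cytosolic (circles) and mitochondrial (squares) gene of each pair (y axis), joined by a line. The circle lies left of the square in 15 of 16 pairs, and the serine pair at the bottom is the exception.

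Genes that work beside the synthetases were taken from lists built from general knowledge, with earlier results of these data known. Of 12 measured genes that edit, process, export or otherwise assist charged tRNA, 10 were lower (median -0.17) and 1 by 1.5-fold. Over all genes the shares were 47.4% and 1.253%. The gene past 1.5-fold was Ppa1, the cytosolic pyrophosphatase that removes the pyrophosphate released by charging, at -0.80 (1.75-fold lower, 1 probe set). Aarsd1, an editing protein for mischarged alanyl-tRNA, stood at -0.33 and Elac2, a tRNA 3′ processing enzyme, at -0.32. Of 7 genes that deliver charged tRNA or move the ribosome in cytosol and mitochondria, 4 were lower (median -0.22), a share near the 47.4% of all genes. The mitochondrial factors Tsfm (-0.42) and Gfm1 (-0.38) and the cytosolic Eef1d (-0.26) lay farthest from 0. The 2 probe sets of Gfm1 were at -0.69 and -0.07, and the 4 of Eef1d ran from -0.59 to -0.13. The other cytosolic factors, Eef1a1 (0.08), Eef1b2 (0.09) and Eef2 (0.04), stood slightly above it.

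The amino acid response list holds GCN2, ATF4 and known ATF4 targets. Of its 26 measured genes 20 were lower, with a median of -0.28, and 2 by 1.5-fold or more. Over all genes 47.4% were lower, and 1.253% by that much. Slc7a5, the large neutral amino acid transporter, was 2.11-fold lower on 1 probe set, Shmt2, a mitochondrial serine hydroxymethyltransferase, was 1.82-fold lower, with 4 probe sets between -1.19 and -0.64, and Mthfd2, the next enzyme of mitochondrial folate metabolism, stood at -0.58. Other members were named after their values were seen. Atf4 itself stood at -0.32 over 3 probe sets between -0.36 and -0.27. Asns, the asparagine synthetase gene, stood at -0.43, with probe sets at -0.67 and -0.18. Ddit3, which encodes the stress factor CHOP, was the highest at 0.34, and the GCN2 gene Eif2ak4 stood at 0.05. A match to the composite element was present in 8 of the 26 genes of the list with a window, which are not the same 26 as those measured. Of the genes with a match 7 were measured, and 7 of 7 were lower. The list as a whole was already lower in 20 of 26, so this count says little about the element. Among the 7, Atf3 (-0.16), Slc7a11 (-0.14) and Vldlr (-0.06) were inside the spike-in range.

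The gene of MYC, a factor that also drives synthetase genes in growing cells, was measured by 1 probe set and stood at -0.08. Of 9 genes of MYC, its partners and its antagonists 3 were lower (median 0.11), against 47.4% of all genes. The list pools factors of opposite action, so its median gives no direction for MYC. The MYC antagonists Mxd4, Mxi1 and Mxd1 stood at 0.51, 0.16 and -0.24. Probe sets of Mxd4 ran from 0.11 to 0.82, and those of Mxd1 from -0.38 to 0.05. Of 14 measured genes induced by interferon-gamma 11 were lower (median -0.20), against the same 47.4%. They were listed because that cytokine also induces Wars. Farthest from 0 were Cxcl9 (-0.97), Gbp2 (-0.65) and Iigp1 (-0.64). The 2 probe sets of Cxcl9 disagreed in size, at -1.66 and -0.28. Without Wars the median of the cytosolic synthetases was -0.43.

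**Figure D5:**
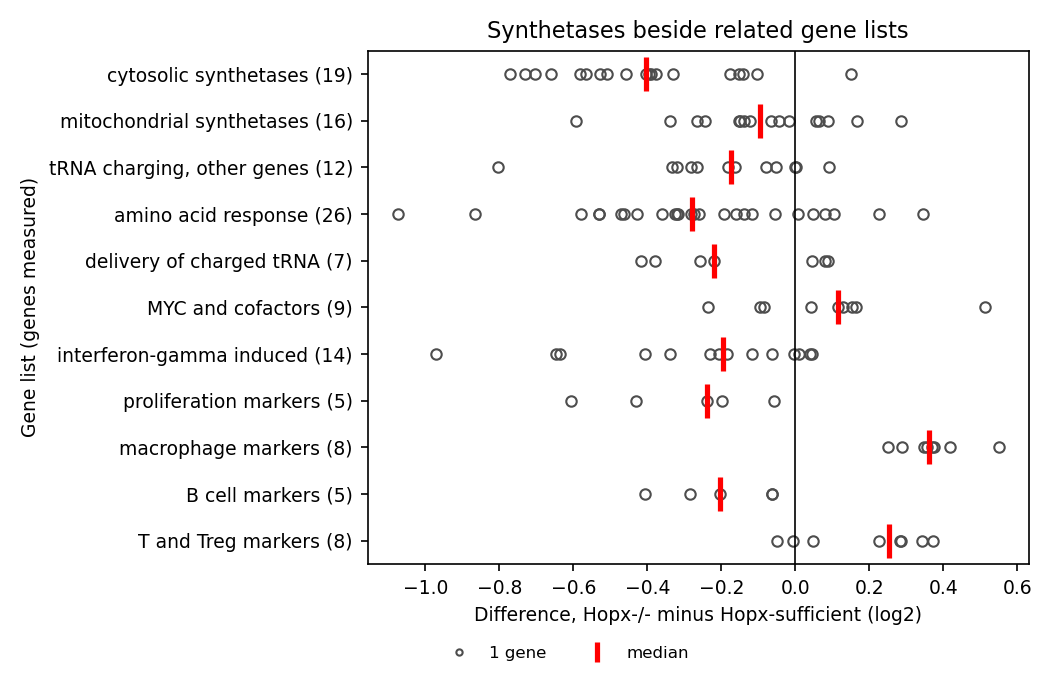
Log2 difference between the Hopx-/- and Hopx-sufficient arrays (x axis) of each gene (circles) in the cytosolic and mitochondrial synthetase groups and related lists (y axis, number of measured genes in parentheses), with the median of each list in red. The cytosolic synthetases have a median of -0.40 and the macrophage markers one of 0.36; the 3 scaffold genes (median -0.59) are not drawn.

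Marker genes of the sorted cells and of other cells were looked at as well. Of 8 markers of T cells and Tregs 6 were higher (range -0.05 to 0.37), and 8 of 8 macrophage markers were higher (0.25 to 0.55). Over all genes 9358 of 18193 were higher. All 5 measured B cell markers were lower (-0.41 to -0.06), against 47.4% of all genes. Nearer to that share were the plasma cell markers, with 3 of 6 lower (range of the list -0.41 to 0.18). Of the markers of CD8 T and NK cells 3 of 5 were lower (-0.41 to 0.20), and of the DC markers 4 of 6 (-0.19 to 0.27). Of 5 measured proliferation markers all were lower (-0.61 to -0.06), with Mcm2, a subunit of the replicative helicase, lowest and Mki67 highest. Levels are not part of the deposited values, so whether any marker was near 0, and whether the labelled cell type shows its markers, cannot be given. The part of these markers in the synthetase differences was not tested.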

How the data were processed

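RNA was labelled with biotin and hybridised to single-colour arrays of 45101 probe sets, per the labels. The authors deposited log2-type values that sum to 0 over the arrays in each row (largest absolute sum 1e-06). Their software, summarisation, normalization and log base are not given in the sources used here. Base 2 was assumed. Gene names came from the platform annotation, with symbols updated by gene ID; 34741 of 34945 probe sets with 1 symbol were found in the RefSeq table (GRCm38.p6). Those with several symbols (932), none (9160) or control sequence (64) were left out. A gene's value was the mean over its probe sets, uncentred (median difference 0.0075 over probe sets). The threshold of 1.5-fold is a rule of size. The gene averaging was tested on simulated data, made of shuffled differences with a known shift. That checks the code and not whether the gene values are sound. All members may be named; the text turns on members past 1.5-fold, the 5 lowest and 3 highest of each compartment and the 3 farthest genes of each other list. Members and lists were chosen with earlier results of these data known. The tools were pandas 2.3.3 and numpy 2.4.6 under Python 3.11.15. The number of arrays limits the precision. The alternatives were centring, other probe set summaries, removal of probe sets, other thresholds, natural logs and sets without Wars or without Gars and Kars.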

Additional observations from a re-analysis of the deposited data

Results flagged for a closer look

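A signal outside the gene values lay in 1 probe set that the annotation assigns to both Aars and Exosc6, and which was therefore left out. It differed by -0.56 between the Hopx-/- and Hopx-sufficient arrays, more than any spike-in control. Aars itself stood at -0.77 on its other 2 probe sets. Probe sets shared by a member and another gene were flagged only when outside the spike-in range, so any that differed less are not shown.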

How the results depend on the processing

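No paired analysis was possible because there is a single array of either genotype, and leaving one out would leave no comparison. The cytosolic median (-0.40) kept its sign in every alternative run. It was -0.46 with the median over probe sets, -0.51 with the most different one and -0.58 with natural logs. Natural logs only rescale the values and cannot turn a sign, and the most different probe set is by choice the one farthest from 0. The median was -0.47 without probe sets whose suffix marks shared transcripts or possible cross-hybridisation. It was -0.48 without the probe sets of the finest value steps, a rough sign of low signal chosen after seeing the data. With natural logs the scaffold median was -0.86 and 9 cytosolic genes were lower by 1.5-fold or more, in place of 4. That reading moves the cutoff for every gene, to a deposited difference near -0.40, below which about 3.9% of all genes lay. The mitochondrial median was -0.19 with the most different probe set. At a threshold of 0.32 on the log2 scale 14 cytosolic and 2 mitochondrial genes were lower; at 2-fold the counts were 0 cytosolic, 0 scaffold and 0 mitochondrial. Without the probe sets of those suffixes 0 mitochondrial genes passed 1.5-fold, since Yars2 then had no probe set. That alternative also left Sars, Fars2 and Tars2 without a value, and removing the finest steps left Mars2 without one.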
